A study of Mus musculus with 6 samples.

Results

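Genes of the proteasome and of MHC antigen presentation were followed in cultured mouse glioma cells. They are the rows of the deposited expression table whose symbol names a proteasome gene (Psma to Psmg with a number) or begins with H2-, together with B2m, Tap1, Tap2, Tapbp and its relative Tapbpl, Erap1, Nlrc5 and Ciita. This rule found 65 of the 12151 genes listed. They comprised 46 proteasome genes and 16 genes of MHC chains, peptide loading or MHC transcription. The other 3 were caught by their symbol: Psmc3ip, which encodes a recombination factor named for binding a proteasome ATPase, H2-Ke2 (now Pfdn6, a prefoldin chaperone subunit) and H2-Ke6 (a hydroxysteroid dehydrogenase).

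The mNS cells grew as neurospheres in DMEM/F12 with B-27, EGF, basic FGF and heparin, and are labelled as stem-like glioma cells. They were set against the mouse glioma line GL261, grown in DMEM with fetal bovine serum and labelled as differentiated glioma cells. Each form had 3 libraries: mNS replicates 1 to 3 at passages 72, 77 and 85, and GL261 replicates 1 to 3 at passages 17, 33 and 34 (for the last, the passage field says 33 and the title 34). Neither form carries a labelled treatment or engineered allele, and both media held penicillin, streptomycin, HEPES, glutamine and beta-mercaptoethanol. The labels give no mouse strain for mNS and no separate cultures beyond the passage, so the spread behind each p-value is that between these 6 libraries. Cell form, medium and passage range cannot be told apart in the comparison.

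The proteasome is the barrel-shaped protease that degrades ubiquitin-tagged proteins. Its 20S core is built from alpha and beta rings, and the 19S cap recognises and unfolds substrates. In cells exposed to interferon-gamma the catalytic beta subunits Psmb5, Psmb6 and Psmb7 are replaced in new particles by Psmb8, Psmb9 and Psmb10, which makes the immunoproteasome, and the PA28 activator of Psme1 and Psme2 is induced with them. Some of the peptides released are pumped into the endoplasmic reticulum by the Tap1-Tap2 transporter, trimmed by Erap1, and loaded with the help of tapasin (Tapbp) onto class I heavy chains paired with beta-2 microglobulin. Loaded class I molecules are read at the surface by CD8 T cells and natural killer cells.

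Libraries held between 12534422 and 14225175 reads in the listed genes, and 1 read was worth 0.0708 to 0.0773 CPM, the unit used here (counts per scaled library size). As a description across the 12006 genes tested, Pearson correlations of log2 values were 0.987 to 0.997 within a cell form and 0.845 to 0.856 across them. All 11 glial and neural progenitor markers looked for were in the table, and 10 of them were called. Their summed level was 6076 to 6634 CPM in mNS and 9543 to 10562 CPM in GL261. Most of that sum was Vim, at 3659 ± 117 CPM in mNS and 7257 ± 617 CPM in GL261. Nes, Sox10, Cd44, S100b and Gfap were also called lower in mNS. Olig1, Olig2, Pdgfra and Fabp7 were called higher, and Sox2 was not called. Single markers went both ways: Olig2 averaged 437 ± 22.8 CPM in mNS and 8.54 ± 2.97 CPM in GL261, Fabp7 89.8 ± 5.88 CPM in mNS and 3.24 ± 2.06 CPM in GL261, and Gfap was near 0 in mNS (0.101 ± 0.115 CPM in mNS and 3.45 ± 1.81 CPM in GL261, SD, n = 3 each). Of 16 microglia and macrophage markers 3 were listed (Csf1r, Cd68 and Cd14), with a summed level of 15.5 to 21.2 CPM in mNS and 7.38 to 7.59 CPM in GL261. Of these Cd68 (8.09 ± 1.32 CPM in mNS and 2.95 ± 0.156 CPM in GL261) was called higher in mNS. Cd14 (9.91 ± 3.64 CPM in mNS and 2.87 ± 0.834 CPM in GL261) was called higher too. Csf1r was near 0 in mNS (0.0488 ± 0.0423 CPM in mNS and 1.68 ± 0.585 CPM in GL261) and was not tested. The defining markers Ptprc, Itgam and Aif1 were not listed. No T and NK cell marker of 7 was listed. Of 7 dendritic and B cell markers 1 was (Zbtb46, 4.91 to 6.16 CPM in mNS and 2.46 to 3.81 CPM in GL261), as was 1 of 7 endothelial markers (Flt1, 26.1 to 31.3 CPM in mNS and 24.7 to 42.5 CPM in GL261). Zbtb46 was called higher in mNS and Flt1 was not called. The 3 fibroblast and pericyte markers listed of 6 summed to 93.8 to 229 CPM in mNS and 259 to 424 CPM in GL261. Among them Col1a1 was called lower in mNS (6.18 ± 2.03 CPM in mNS and 127 ± 9.75 CPM in GL261). Pdgfrb was called lower too, near 0 in mNS, and Col3a1 was not called. In such bulk samples fewer cells of a type and less RNA per cell cannot be told apart, and the part of other cell types in the differences below was not tested.

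Most members differed little between the cell forms. All 65 were tested, and 36 were called at a limma adjusted p under 0.05, 12 higher and 24 lower in mNS; the background over all genes tested was 64.3% called, 32.2% higher and 32.1% lower. The median log2 difference of the members was -0.06, against -0.0027 over all genes tested, and the median absolute difference was 0.26, against 0.402. A called change of at least 2-fold was found for 2 members, Tap2 and Tapbpl, where 19.7% of all genes tested had one. For 37 members the mNS and GL261 values were fully separated, as they were for 69.9% of all genes. With columns rescaled to a common sum, which shifts the median of all genes by 0.08 on the log2 scale, 16 members were called higher and 15 lower. The 12 higher calls became 7 without GL261 replicate 2 and 6 without mNS replicate 2 or without mNS replicate 3. All log2 differences are mNS minus GL261 of log2(CPM + 1), given ± SE, and for genes at low levels this scale makes a change look smaller than it is.

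**Figure D1:**
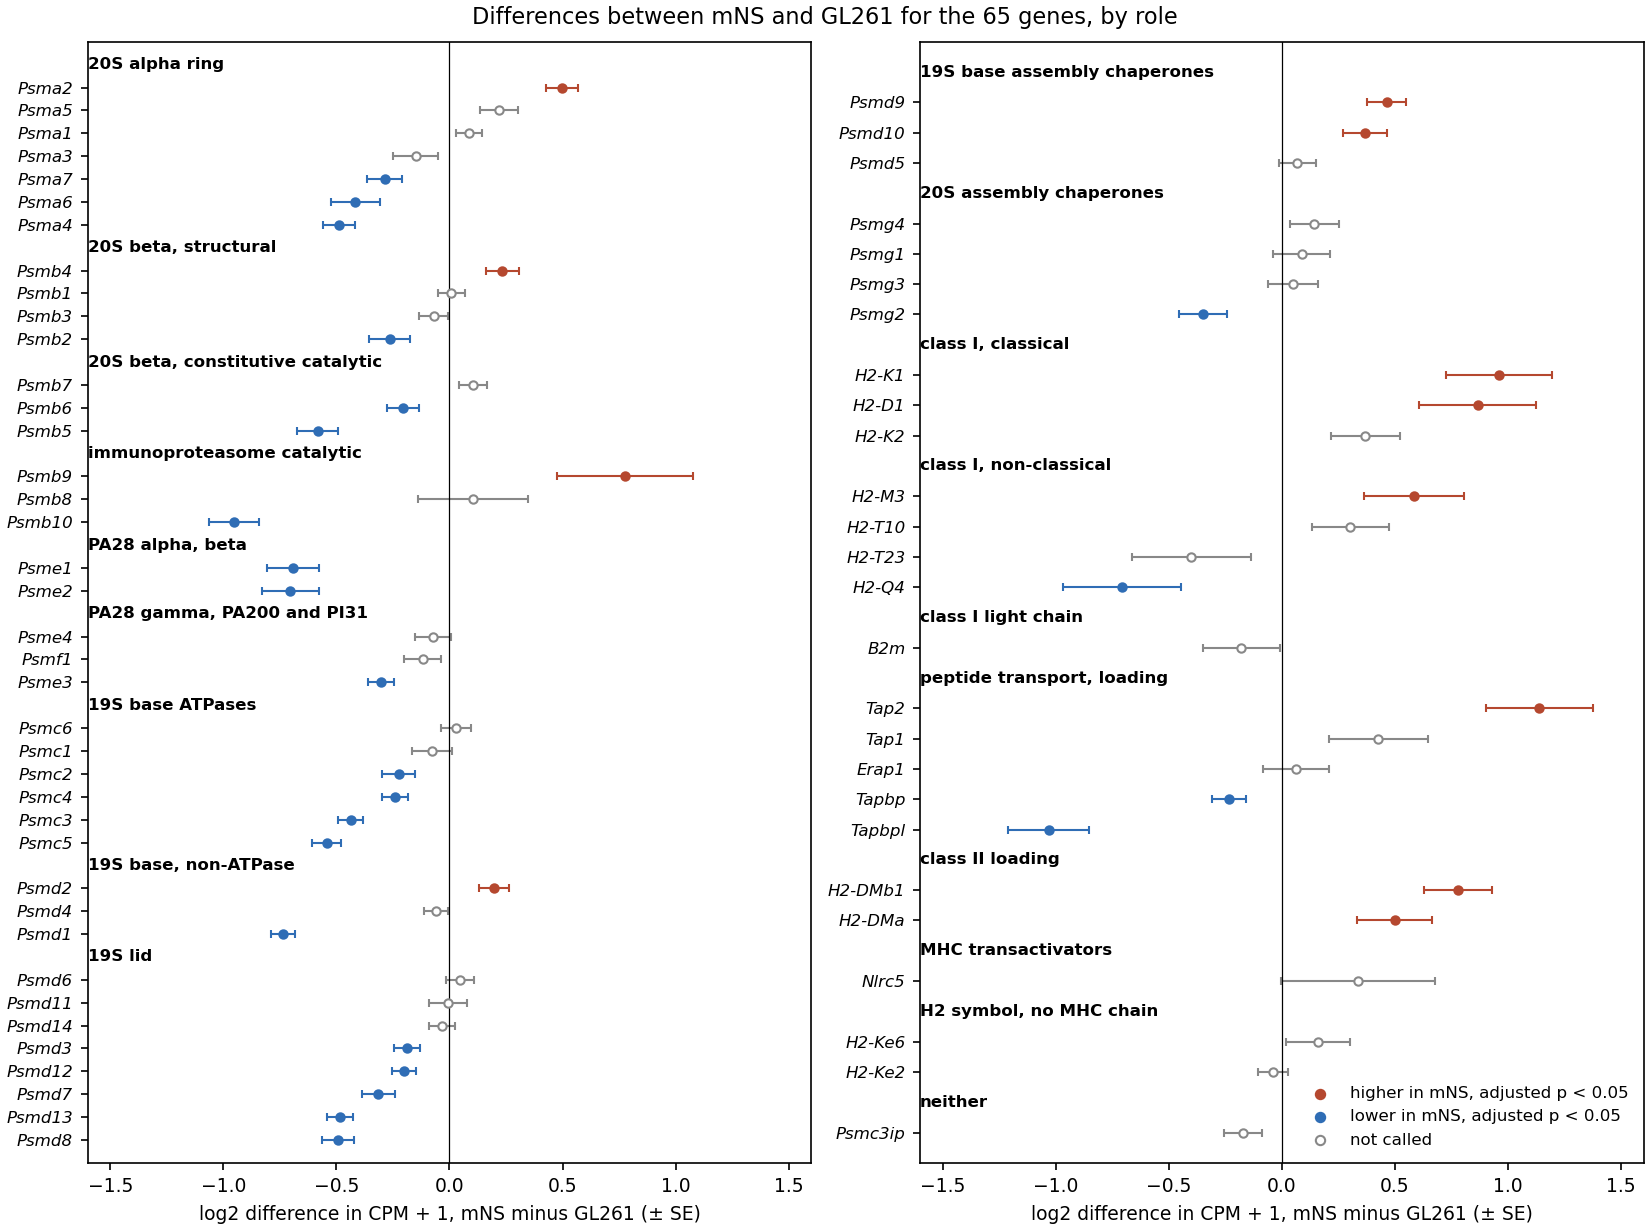
Log2 difference in CPM + 1 (mNS minus GL261, horizontal axis, ± SE from limma, 3 libraries per group) for the 65 genes, grouped by role; red points were called higher in mNS, blue points lower, open grey points were not called. Psmb10, Psme1 and Psme2 lie left of 0 at -0.95, -0.69 and -0.703, while H2-K1, H2-D1 and Tap2 lie right of it at 0.96, 0.87 and 1.14.

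Of the 3 immunoproteasome subunits 1 fell, 1 was called higher at the edge of the threshold and 1 was not called. Psmb10, the inducible trypsin-like subunit, had 26.3, 33.2 and 34.98 CPM in mNS, against 60.4, 59.8 and 64.4 CPM in GL261. The groups did not overlap; Psmb10 fell in mNS (log2 difference -0.95 ± 0.11, limma adjusted p = 8.97e-05), with GL261 1.95-fold above it. Psmb9, the inducible subunit that takes the place of Psmb6, had 6.87, 12.1 and 16.4 CPM in mNS and 7.53, 4.11 and 7.22 CPM in GL261. The lowest mNS library lay inside the GL261 range (log2 difference 0.78 ± 0.301, limma adjusted p = 0.04904). This call was lost without mNS replicate 2 or 3 or GL261 replicate 2 or 3, with pseudocounts of 0.5 or 0.1, with a filter of 5 CPM, when each library was centred on its median gene, and without the trend. Psmb8, the inducible chymotrypsin-like subunit, had 50.1, 80.6 and 97.2 CPM in mNS and 83.9, 52.3 and 71.9 CPM in GL261. Its groups overlapped and no difference was called (log2 difference 0.104 ± 0.24, limma adjusted p = 0.727); the sign turned without mNS replicate 3 or GL261 replicate 2.

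Of the constitutive counterparts 2 fell. Psmb5, the standard chymotrypsin-like subunit, had 36.2, 37.2 and 38.3 CPM in mNS and 49.9, 58.5 and 61.05 CPM in GL261. Every mNS library lay below every GL261 library (log2 difference -0.58 ± 0.09, limma adjusted p = 0.000545), and 22.2% of the 100-base windows of its exons also occur in other annotated genes, so that its reads could be split with them. Psmb6, the standard caspase-like subunit, had 154, 163 and 175 CPM in mNS and 181, 201 and 184 CPM in GL261. This fall without overlap (log2 difference -0.203 ± 0.07, limma adjusted p = 0.0324) was lost without mNS replicate 1 or 2 or GL261 replicate 2 or 3, without the trend, and after rescaling to a common sum. Psmb7, the standard trypsin-like subunit, had 192, 193 and 209 CPM in mNS and 179, 192 and 179.96 CPM in GL261. It was not called (log2 difference 0.105 ± 0.06, limma adjusted p = 0.169) but was called higher after rescaling to a common sum (log2 difference 0.195, adjusted p = 0.0203).

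Log2 ratios of CPM + 1 within a library set each inducible subunit against the one it replaces and are nearly free of how libraries were scaled. The log2 ratio of Psmb9 to Psmb6 was -4.298, -3.64 and -3.33 in mNS and -4.41, -5.305 and -4.49 in GL261, a difference of 0.98. That of Psmb10 to Psmb7 was -2.82, -2.4996 and -2.54 in mNS and -1.55, -1.67 and -1.47 in GL261, a difference of -1.06. Neither ratio overlapped between the groups, and their directions were opposite. That of Psmb8 to Psmb5 was 0.46, 1.096 and 1.32 in mNS and 0.74, -0.16 and 0.23 in GL261, with overlap (difference 0.69). In two-sided exact permutation tests the Psmb9 and Psmb10 ratios gave p = 0.1, the smallest that 3 libraries against 3 allow, and the Psmb8 ratio p = 0.2; adjusted over the 12 ratios computed these were 0.12 and 0.218. As a description, the inducible genes held 17.9, 24.3 and 26.1% of the summed catalytic CPM in mNS and 27.1, 20.5 and 25.2% in GL261.

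Both genes of the PA28 activator fell, as Psmb10 did. Psme1 (PA28 alpha) had 68.5, 83.2 and 95.2 CPM in mNS and 124, 136 and 138 CPM in GL261, with GL261 1.61-fold above mNS (log2 difference -0.69 ± 0.11, limma adjusted p = 0.0007297). Psme2 (PA28 beta) had 15.1, 17.3 and 20.04 CPM in mNS and 26.02, 29.2 and 31.8 CPM in GL261, with GL261 1.66-fold above mNS (log2 difference -0.703 ± 0.12, limma adjusted p = 0.00115). Neither gene's groups overlapped, and both calls held without each library in turn. Of the Psme2 windows 18.4% also occur in Psme2b, which was not listed in the table. Psme3, the nuclear PA28 gamma, had 173, 184 and 185 CPM in mNS and 228, 227 and 213 CPM in GL261 and fell (log2 difference -0.302 ± 0.06, limma adjusted p = 0.00199). The activator PA200 (Psme4, log2 difference -0.07) and the regulator PI31 (Psmf1, -0.12) were not called.

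**Figure D2:**
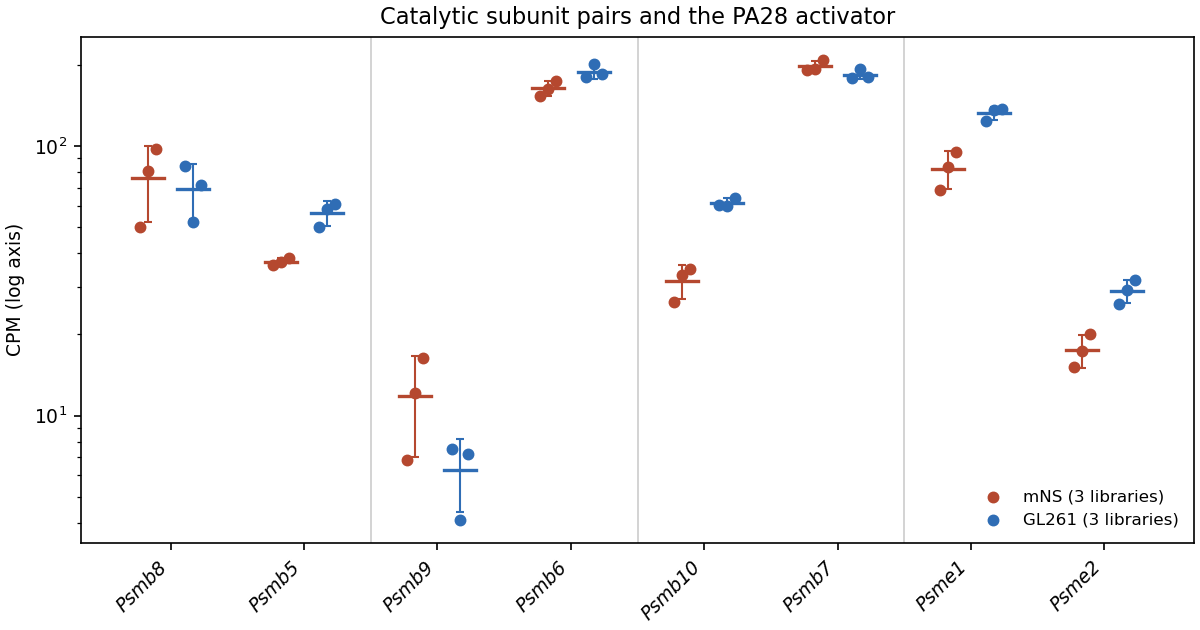
CPM on a log axis for each inducible catalytic subunit beside its constitutive counterpart and for Psme1 and Psme2; points are libraries, bars the mean ± SD of 3 libraries, mNS in red on the left of each gene and GL261 in blue. Psmb10, Psme1 and Psme2 separate with mNS below GL261, whereas the points of Psmb8 and Psmb9 overlap.

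The rest of the proteasome had more falls than rises, by small amounts. Setting aside Psmb8, Psmb9, Psmb10, Psme1 and Psme2 left 41 proteasome genes. Psmb5, Psmb6, Psmb7, Psme3, Psme4 and Psmf1, given above, are counted among them. Of the 41 genes 5 rose, 18 fell and 18 were not called, with a median log2 difference of -0.08. The called share was 56.1%, against 64.3% of all genes tested, where 32.2% were higher and 32.1% lower in mNS. For 39 of them the group means lay within 1.5-fold of each other, and the share of all genes within that limit was not counted. The median absolute log2 difference was 0.222 for all 46 proteasome genes, against 0.402 over all genes tested. The 41 genes summed to 6347, 6496 and 6638 CPM in mNS and 7252, 7263 and 7104 CPM in GL261, a difference of -9.88%, or -4.01% after rescaling to a common sum. Of all 46 proteasome genes 21 were called lower with the deposited scaling and 14 after rescaling to a common sum. The 6 called higher became 9 after that rescaling, 4 without the trend, 2 without mNS replicate 2 and 3 without mNS replicate 3.

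Of the cap (19S) subunits, 17 have Psmc or Psmd symbols, and of these 10 fell, 1 rose and 6 were not called (median log2 difference -0.201). The called share was 64.7%, against 64.3% of all genes tested, where 32.2% were higher and 32.1% lower in mNS. After rescaling to a common sum 7 of the 17 were called lower. Shfm1, a small lid subunit outside these symbols, rose (log2 difference 0.54). Psmd1, the large scaffold of the base, had the strongest fall of the 41 genes, with 301, 292 and 302 CPM in mNS and 477, 509.8 and 509 CPM in GL261 (log2 difference -0.74 ± 0.05, limma adjusted p = 5.91e-06). Psmc5, a base ATPase, had 164, 153 and 145 CPM in mNS and 226, 219.9 and 229 CPM in GL261 (log2 difference -0.54 ± 0.06, limma adjusted p = 8.83e-05). Psmd8, a lid subunit, had 175, 175 and 193 CPM in mNS and 273, 251 and 242 CPM in GL261 (log2 difference -0.49 ± 0.07, limma adjusted p = 0.000314). For each of Psmd1, Psmc5 and Psmd8 every mNS library lay below every GL261 library. Psmd2, the other large base subunit and the 1 that rose of these 17, had 530.2, 573 and 603 CPM in mNS and 521, 479 and 488 CPM in GL261. Its rise (log2 difference 0.197 ± 0.07, limma adjusted p = 0.0274) was lost without mNS replicate 2 or 3 or GL261 replicate 2 or 3, and it was singled out after its value was seen.

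Rises were also found in the alpha ring, in the beta ring and among the chaperones that build the base. Psma2, a subunit of the alpha ring, had 165, 169 and 186 CPM in mNS and 128, 125 and 114 CPM in GL261 (log2 difference 0.498 ± 0.07, limma adjusted p = 0.000368), while 3 of its 6 ring partners in the table fell. Psmd9, a chaperone that helps build the base and is not part of the finished cap, had 43.6, 43.5 and 37.9 CPM in mNS and 29.4, 31.1 and 29.2 CPM in GL261 (log2 difference 0.46 ± 0.09, limma adjusted p = 0.00154). Psmd10, another such chaperone, had 24.8, 27.8 and 26.5 CPM in mNS and 21.9, 18.5 and 20.2 CPM in GL261 (log2 difference 0.37 ± 0.098, limma adjusted p = 0.00986), and its call was lost without mNS replicate 2 (adjusted p = 0.0505). None of these 3 genes overlapped between the groups. Of the 4 structural beta subunits 1 rose and 1 fell. Psmb4 had 302, 331 and 349 CPM in mNS and 261, 285 and 288 CPM in GL261. It rose without overlap (log2 difference 0.23 ± 0.07, limma adjusted p = 0.0184), a call lost without mNS replicate 2 or 3, and it too was singled out after its value was seen. Psmb2 had 84.5, 85.5 and 90.9 CPM in mNS and 119, 102 and 94.4 CPM in GL261. It fell (log2 difference -0.26 ± 0.09, limma adjusted p = 0.0304), a call lost without mNS replicate 1 or 2 or GL261 replicate 1 or 2, without the trend and after rescaling to a common sum. Psmg2, the 1 gene called among 4 chaperones of the 20S core, had 46.2, 51.03 and 56.8 CPM in mNS and 58.1, 66.3 and 72.8 CPM in GL261. It fell too (log2 difference -0.35 ± 0.11, limma adjusted p = 0.0188), a call lost without mNS replicate 1 or 2 or GL261 replicate 2 or 3 and after rescaling to a common sum. The germ cell subunit gene Psma8 and the thymus subunit gene Psmb11 were not listed.

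The classical class I heavy chain genes were higher in the neurospheres. H2-K1 had 108, 174 and 207 CPM in mNS and 94.9, 62.5 and 87.6 CPM in GL261. Every mNS library lay above every GL261 library, and the mean was 1.997-fold higher in mNS (log2 difference 0.96 ± 0.24, limma adjusted p = 0.00665). H2-D1 had 42.3, 72.1 and 81.99 CPM in mNS and 43.98, 25.6 and 35.3 CPM in GL261. Here mNS at passage 72 lay below GL261 at passage 17, and the call (log2 difference 0.87 ± 0.26, limma adjusted p = 0.0168, 1.87-fold) was lost without mNS replicate 2 or 3 or GL261 replicate 2. H2 genes are highly polymorphic between mouse strains and resemble each other, so reads from another haplotype than the reference could be lost or moved between them; 0.957% of the 100-base windows of H2-K1 and 3.59% of those of H2-D1 also occur in other annotated genes.

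Of the other 5 class I genes listed 1 rose, 1 fell and 3 were not called. H2-Q4, a non-classical heavy chain, had 4.53, 9.897 and 9.91 CPM in mNS and 13.4, 11.1 and 15.4 CPM in GL261. Its fall without overlap (log2 difference -0.71 ± 0.26, limma adjusted p = 0.0401) was lost without mNS replicate 1 or GL261 replicate 1, 2 or 3, without the trend and after rescaling to a common sum. H2-M3, which presents formylated peptides, had 7.78, 9.59 and 12.4 CPM in mNS and 7.604, 4.26 and 7.15 CPM in GL261. Its rise without overlap (log2 difference 0.58 ± 0.22, limma adjusted p = 0.0459) was lost without mNS replicate 2 or 3 or GL261 replicate 2 or 3, with a pseudocount of 0.1, without the trend and when each library was centred on its median gene. H2-T23, the Qa-1 chain seen by natural killer cell receptors, had 2.72, 3.25 and 6.51 CPM in mNS and 5.59, 4.41 and 6.65 CPM in GL261. It overlapped and was not called (log2 difference -0.4001 ± 0.26, limma adjusted p = 0.212), but was called lower without mNS replicate 3 (-0.71, adjusted p = 0.0129). H2-T10, annotated as a polymorphic pseudogene, had 15.9, 19.02 and 23.7 CPM in mNS and 18.1, 12.7 and 15.97 CPM in GL261 and was not called (log2 difference 0.303 ± 0.17, limma adjusted p = 0.1501). H2-K2, annotated as a transcribed pseudogene, had 1.36, 1.31 and 1.63 CPM in mNS and 0.969, 0.747 and 0.939 CPM in GL261. It was not called (log2 difference 0.37 ± 0.15, limma adjusted p = 0.0608), but was after rescaling to a common sum (adjusted p = 0.0392) and without the trend (0.00849).

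B2m encodes the light chain shared by these molecules. It had 219, 305 and 346 CPM in mNS and 385, 281 and 311 CPM in GL261, with wide overlap, and was not called (log2 difference -0.18 ± 0.17, limma adjusted p = 0.381); the difference was 0.01 without mNS replicate 1. Per kilobase of annotated exon, B2m stood at 337 CPM in mNS and 378 CPM in GL261. On the same scale H2-K1 stood at 55.5 CPM in mNS and 27.8 CPM in GL261, and H2-D1 at 25.4 CPM in mNS and 13.5 CPM in GL261.

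**Figure D3:**
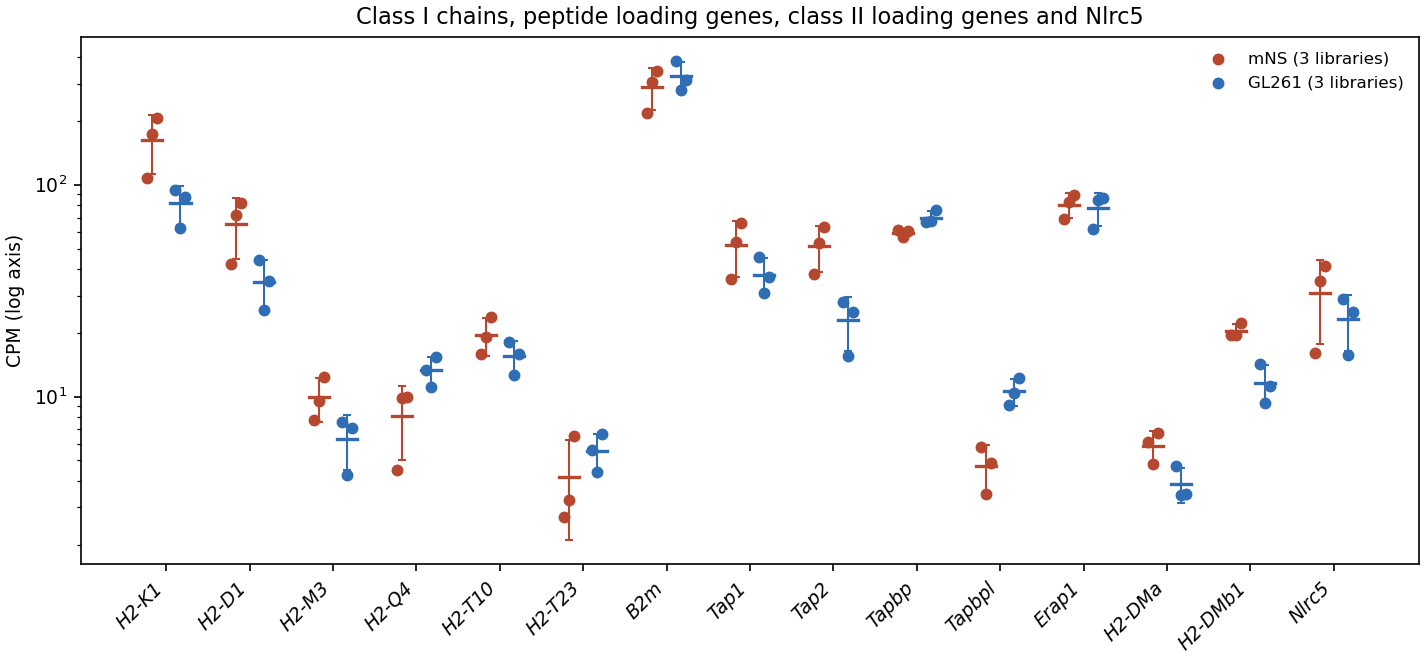
CPM on a log axis for class I chains, peptide loading genes, class II loading genes and Nlrc5; points are libraries, bars the mean ± SD of 3 libraries, mNS in red on the left of each gene and GL261 in blue. H2-K1 and Tap2 lie higher in mNS with no overlap, Tapbpl lies lower, and B2m and Erap1 overlap.

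Among the genes of peptide transport and loading 1 rose, 2 fell and 2 were not called. Tap2, a subunit of the peptide transporter, had 37.8, 53.2 and 63.2 CPM in mNS and 28.03, 15.6 and 25.2 CPM in GL261. The groups did not overlap, and the mean was 2.24-fold higher in mNS (log2 difference 1.14 ± 0.24, limma adjusted p = 0.00273). Its partner Tap1 had 35.8, 53.9 and 66.1 CPM in mNS and 45.6, 30.8 and 36.6 CPM in GL261. The groups overlapped and Tap1 was not called (log2 difference 0.43 ± 0.22, limma adjusted p = 0.117), but it was without mNS replicate 1 (0.67, adjusted p = 0.00944) and by DESeq2 (adjusted p = 0.0495). Tapbpl, a tapasin relative that edits bound peptides, had 5.81, 3.48 and 4.89 CPM in mNS and 9.17, 10.4 and 12.2 CPM in GL261. It fell without overlap (log2 difference -1.03 ± 0.18, limma adjusted p = 0.00102), with GL261 2.24-fold above mNS. Tapbp had 60.9, 56.4 and 60.5 CPM in mNS and 66.8, 67.3 and 75.6 CPM in GL261. Its fall without overlap (log2 difference -0.23 ± 0.08, limma adjusted p = 0.0254) was lost without mNS replicate 2 or GL261 replicate 3 and after rescaling to a common sum. Erap1 had 68.7, 83.04 and 89.9 CPM in mNS and 61.7, 84.6 and 86.2 CPM in GL261, overlapped and was not called (log2 difference 0.06 ± 0.14, limma adjusted p = 0.724); its sign turned without mNS replicate 3 or GL261 replicate 1.

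Within each library the heavy chains were also set against the loading genes. The log2 ratio of H2-K1 to Tap1 was 1.57, 1.67 and 1.63 in mNS and 1.04, 0.998 and 1.23 in GL261, a difference of 0.53. Its ratio to Tap2 was 1.49, 1.69 and 1.696 in mNS and 1.72, 1.93 and 1.76 in GL261, a difference of -0.18. Its ratio to Tapbp was 0.82, 1.61 and 1.76 in mNS and 0.5003, -0.11 and 0.21 in GL261, a difference of 1.19. The 3 ratios thus differed in size and the second also in direction. H2-D1 gave differences of 0.44 over Tap1, -0.27 over Tap2 and 1.0996 over Tapbp. B2m over Tap2 was 2.502, 2.499 and 2.43 in mNS and 3.73, 4.09 and 3.57 in GL261, a difference of -1.32, and over Tap1 it differed by -0.61. For these 8 ratios the groups did not overlap and the two-sided exact permutation p was 0.1, the smallest possible, or 0.12 adjusted over the 12 ratios. B2m over Tapbp overlapped (difference 0.05, exact permutation p = 1). As a description, the 7 class I genes in the table summed to 272 ± 81.7 CPM in mNS and 158 ± 32.9 CPM in GL261 (SD, n = 3 each). This sum includes H2-T10 and H2-K2, which are annotated as pseudogenes. The 5 loading genes summed to 248 ± 37.8 CPM in mNS and 219 ± 14.97 CPM in GL261.

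**Figure D4:**
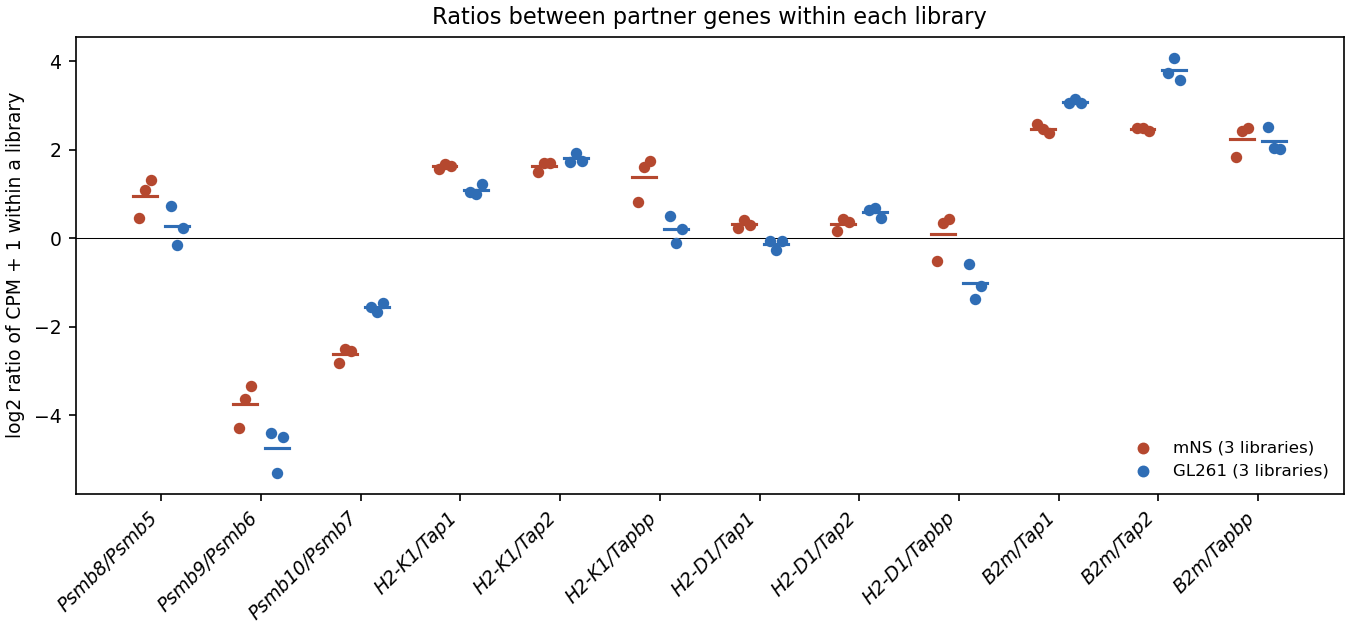
Log2 ratio of CPM + 1 between partner genes within each library (vertical axis), with mNS in red on the left and GL261 in blue; points are libraries and bars their means. The ratios of H2-K1 to Tap1 and of B2m to Tap2 lie apart between the groups, and Psmb9/Psmb6 and Psmb10/Psmb7 separate in opposite directions.

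Few genes tied to class II were listed. H2-DMa and H2-DMb1 encode chains of the endosomal catalyst that exchanges class II peptides. H2-DMb1 had 19.5, 19.6 and 22.3 CPM in mNS and 14.3, 9.34 and 11.3 CPM in GL261 (log2 difference 0.78 ± 0.15, limma adjusted p = 0.00181). H2-DMa had 6.12, 4.79 and 6.73 CPM in mNS and 4.697, 3.44 and 3.47 CPM in GL261 (log2 difference 0.499 ± 0.16, limma adjusted p = 0.0264). Both rose without overlap, but the H2-DMa call was lost without mNS replicate 1 or 3 or GL261 replicate 2 or 3, and in DESeq2 (adjusted p = 0.0547), and 11.3% of the H2-DMb1 windows also occur in H2-DMb2. The class II chains themselves (such as H2-Aa and H2-Ab1), the invariant chain gene Cd74 and the class II transactivator Ciita were not listed. Nlrc5, the class I transactivator, had 16.005, 35.3 and 41.6 CPM in mNS and 28.9, 15.7 and 25.2 CPM in GL261. It overlapped and was not called (log2 difference 0.34 ± 0.34, limma adjusted p = 0.412), but was without mNS replicate 1 (0.74, adjusted p = 0.0259).

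Counting all 16 MHC and presentation genes, 6 rose, 3 fell and 7 were not called, with a median log2 difference of 0.35. The called share was 56.25%, against 64.3% of all genes tested, where 32.2% were higher and 32.1% lower in mNS. The higher calls were 3 without mNS replicate 3 or without GL261 replicate 2, and the lower calls 1 without GL261 replicate 3 and 1 after rescaling to a common sum. The genes caught only by their symbol were not called: H2-Ke2 had 64.9, 71.1 and 68.4 CPM in mNS and 68.7, 71.98 and 69.5 CPM in GL261. H2-Ke6 had 9.36, 10.05 and 11.6 CPM in mNS and 9.09, 7.77 and 10.7 CPM in GL261, and shares 61.6% of its windows with Gm20427. Psmc3ip had 34.7, 36.3 and 38.9 CPM in mNS and 38.6, 42.7 and 42.8 CPM in GL261, and was called lower without GL261 replicate 1 (adjusted p = 0.0483).

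Libraries of the same cell form differed from each other in many of these genes. Within mNS, 12 of the 16 MHC and presentation genes increased in the order of passages 72, 77 and 85, against 27.3% of all genes tested, and their median ratio of passage 85 to passage 72 was 1.59, against 0.998 over all genes. The exceptions to the order were H2-DMa, H2-K2, Tapbp and Tapbpl. Nlrc5 was 2.597-fold higher at passage 85 than at passage 72, H2-D1 1.94-fold, H2-K1 1.92-fold and B2m 1.58-fold. Psmb8, Psmb9, Psmb10, Psme1 and Psme2 had that order too, with ratios between 1.33 and 2.39, the highest for Psmb9. Of the other 41 proteasome genes 21 (51.2%) had the order too, and their median ratio was 1.06. None of the 41 reached 1.5-fold, where 5.08% of all genes tested with any read at passage 72 did. Of the 16 MHC and presentation genes 9 reached it. Within GL261, passage 33 was the lowest library for 13 of the 16 MHC and presentation genes, against 27.3% of all genes tested. The difference of passage 33 from passage 17 was -34.2% for H2-K1, -45.4% for Psmb9 and -45.6% for Nlrc5. It was -0.973% for Psmb10 and 9.41% for Psme1. The library with passage 34 in its title stood nearer to passage 17 for the first 3 of these genes. It had 87.6 CPM for H2-K1, 7.22 CPM for Psmb9 and 25.2 CPM for Nlrc5. Passage 17 had 94.9, 7.53 and 28.85 CPM. Each passage was 1 library, so these values carry no test, and passage cannot be told apart from the single culture or library.

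**Figure D5:**
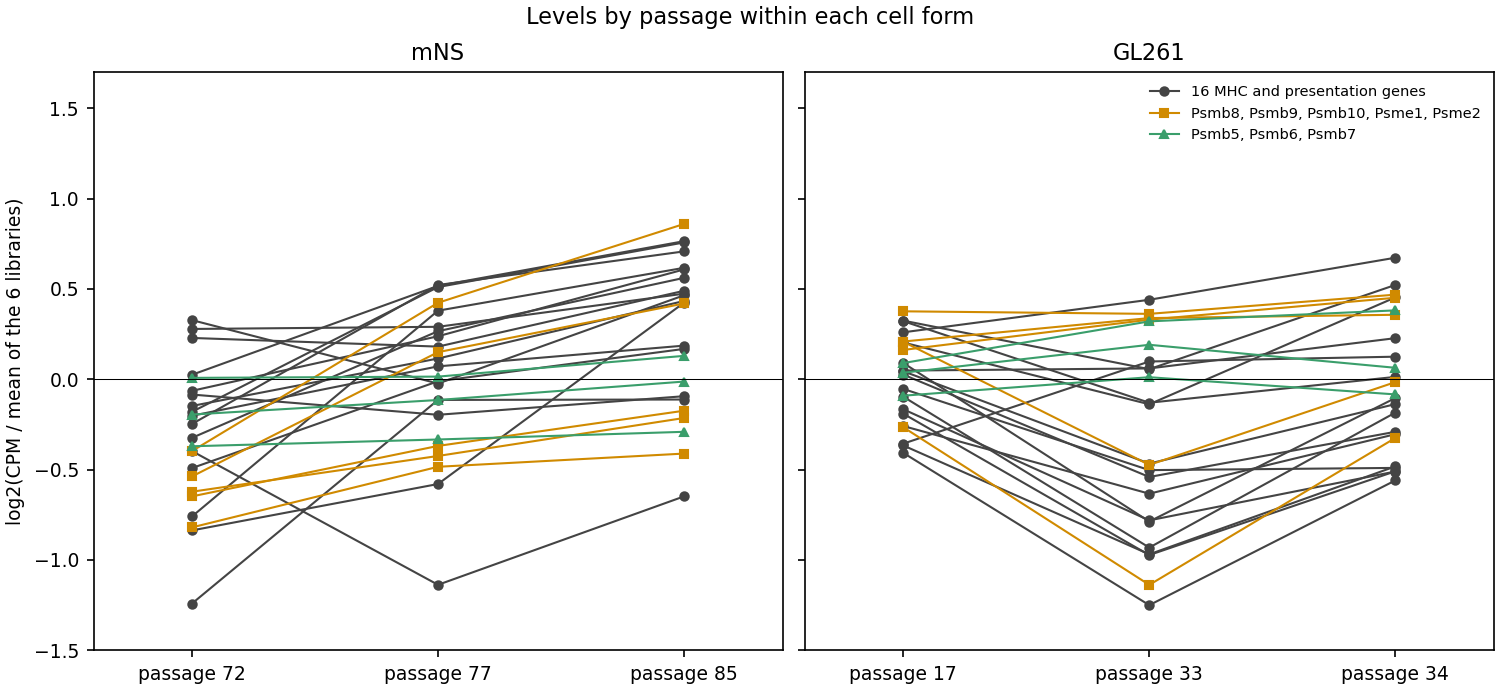
Log2 ratio of CPM to the gene's mean over the 6 libraries (vertical axis) at each passage, mNS on the left and GL261 on the right; each line is a gene, each point 1 library, and passages are spaced evenly whatever their distance. Most of the 16 MHC and presentation genes climb across mNS passages 72, 77 and 85 and dip at GL261 passage 33, while Psmb5, Psmb6 and Psmb7 vary less.

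The proteasome genes lay on 16 chromosomes, whereas 16 of the members lay within 3358.6 kb of chromosome 17, from the start of Tapbp at 33915899 to the end of H2-M3 at 37274484 (GRCm38). There Psmb9, Tap1, Psmb8 and Tap2 stand side by side in 34.3 kb (34181987 to 34216321), with log2 differences of 0.78, 0.43, 0.104 and 1.14 in that order. Psmb9 and Tap1 are read in opposite directions and 212 bases of their exons overlap, where reads can be told apart only if the counting used strand, and whether it did is unknown here. The same limit holds for other members whose exons overlap genes of the opposite strand. Examples are Psmd9 (1849 bases), Tapbp (904), Tap2 (698), Psmb8 (498) and H2-DMa (360, with Brd2). Psmb10 (chromosome 8, 105935735 to 105938444), Psme1 (chromosome 14, 55578123 to 55581529) and Psme2 (chromosome 14, 55587441 to 55591113) lie outside the MHC.

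Promoter sequences are shown for 5 genes of the contrast between constitutive and inducible presentation genes. Each runs from 250 bases before to 50 after the start site, 5′ to 3′, from RefSeq (GRCm38.p6). Of the 65 members 53 were matched, and the first listed start was used. The Tap1 window shares 275 of its 300 bases with the Psmb9 window, which is read from the other strand. Capitals mark matches, on either strand, to an interferon-stimulated response element (GAAA, any 2 bases, GAAA), a gamma-activated site (TTCNNNGAA), a kappa B site (GGGANTTCC), an antioxidant response element (TGACNNNGC) or a CCAAT box (CCAAT). No matches overlap in the windows shown.
H2-K1, chr17:34000298-34000597, minus strand: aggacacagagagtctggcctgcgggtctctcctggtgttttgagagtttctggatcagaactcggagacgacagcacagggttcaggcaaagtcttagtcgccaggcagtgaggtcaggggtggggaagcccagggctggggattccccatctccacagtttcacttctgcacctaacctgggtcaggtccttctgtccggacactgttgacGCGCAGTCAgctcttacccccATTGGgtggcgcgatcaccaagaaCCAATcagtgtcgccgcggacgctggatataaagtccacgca
B2m, chr2:122147437-122147736, plus strand: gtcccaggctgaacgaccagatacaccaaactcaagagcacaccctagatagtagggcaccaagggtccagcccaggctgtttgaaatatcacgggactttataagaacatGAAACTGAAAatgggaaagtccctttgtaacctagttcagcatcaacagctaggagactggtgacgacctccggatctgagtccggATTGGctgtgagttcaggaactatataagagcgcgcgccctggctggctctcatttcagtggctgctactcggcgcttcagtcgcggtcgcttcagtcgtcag
Tap1, chr17:34187306-34187605, plus strand: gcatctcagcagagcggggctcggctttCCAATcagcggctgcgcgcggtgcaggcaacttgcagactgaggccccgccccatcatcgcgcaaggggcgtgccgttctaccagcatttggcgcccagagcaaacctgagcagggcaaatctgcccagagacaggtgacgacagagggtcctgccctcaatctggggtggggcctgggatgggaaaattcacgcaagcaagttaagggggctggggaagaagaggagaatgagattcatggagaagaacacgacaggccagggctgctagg
Psmb8, chr17:34197945-34198244, plus strand: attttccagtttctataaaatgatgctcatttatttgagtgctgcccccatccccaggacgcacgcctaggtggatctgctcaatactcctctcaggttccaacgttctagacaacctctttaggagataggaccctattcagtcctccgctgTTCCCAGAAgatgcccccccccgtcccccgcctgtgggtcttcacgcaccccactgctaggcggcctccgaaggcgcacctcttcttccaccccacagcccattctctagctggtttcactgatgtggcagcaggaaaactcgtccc
Psmb5, chr14:54617946-54618245, minus strand: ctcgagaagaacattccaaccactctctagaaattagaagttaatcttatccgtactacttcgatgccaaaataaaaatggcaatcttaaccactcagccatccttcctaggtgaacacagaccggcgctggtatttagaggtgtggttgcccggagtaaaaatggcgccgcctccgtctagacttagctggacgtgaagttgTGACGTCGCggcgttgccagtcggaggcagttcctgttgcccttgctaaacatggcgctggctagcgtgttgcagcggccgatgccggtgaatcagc
The B2m window held a response element match starting 139 bases before the start site, and the Psmb8 window a gamma-activated site match (TTCCCAGAA) 97 bases before. The Psmb5 window held an antioxidant element match (TGACGTCGC) 47 bases before, and the H2-K1 window one on the other strand (GCGCAGTCA) 37 bases before. The Tap1 window held a CCAAT box alone. Over all 27025 promoters of this length 3.49% held the response element letters, against 8 of 53 member promoters. The gamma-activated site was in 8.47% of all and 4 member promoters, the kappa B site in 1.69% and 1, the antioxidant element in 12.5% and 8, and a CCAAT box in 37.9% and 24. Of the 11 matched MHC and presentation genes 3 held the response element letters and 9 a CCAAT box. Such matches describe letters in a window and not binding. The patterns are strict, so a site spelled otherwise is missed, in H2-K1 as elsewhere. A window without a match was not taken to lack the element.

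Other genes of these pathways were counted in the same fit. Over all genes tested 64.3% were called, 32.2% higher and 32.1% lower in mNS. In the small lists below the called share lay between 50% (class I-like genes) and 83.3% (endosomal class II processing). It was 69.6% for the regulators of MHC transcription. Of 23 regulators of MHC transcription 10 rose and 6 fell. Irf9, a DNA-binding subunit of an interferon-activated transcription factor, had 28.4, 32.1 and 43.9 CPM in mNS and 104, 125 and 132 CPM in GL261 and fell (log2 difference -1.78 ± 0.16, limma adjusted p = 1.77e-05). Stat2, which acts in type I interferon signalling, had 18.9, 24.4 and 31.01 CPM in mNS and 60.9, 53.5 and 52.96 CPM in GL261 and fell (log2 difference -1.17 ± 0.16, limma adjusted p = 0.000257). Ifngr2, a chain of the interferon-gamma receptor, had 41.9, 51.2 and 54.9 CPM in mNS and 14.2, 14.4 and 13.9 CPM in GL261 and rose (log2 difference 1.72 ± 0.11, limma adjusted p = 2.63e-06). Irf9 and Stat2 thus stood lower in mNS, as did Psmb10, Psme1, Psme2, Tapbpl and H2-Q4, the last by a call lost in the refits given above. Ifngr2, H2-K1 and Tap2 stood higher. B2m and Psmb8 were not called. Irf9, Stat2, Ifngr2, H2-K1 and Tap2 increased in the order of mNS passages 72, 77 and 85, as did 27.3% of all genes tested. A link between these genes was not tested.

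Of 7 genes of class I folding and loading, 6 of them of the endoplasmic reticulum and 1 the endosomal aminopeptidase gene Lnpep, 5 fell and none was called higher. Calr, the calreticulin of the loading complex, had 869, 895 and 957 CPM in mNS and 1514, 1571 and 1640 CPM in GL261 (log2 difference -0.795 ± 0.06, limma adjusted p = 7.52e-06). Pdia3, the disulfide isomerase of that complex (-0.41), the glycoprotein quality sensor gene Uggt1 (-0.499) and the general chaperone gene Hspa5 (-0.28) also fell. Of 9 cytosolic peptidases, which trim or destroy peptides, 4 rose and 3 fell. Lap3, leucine aminopeptidase, had 482, 608 and 604 CPM in mNS and 212, 255 and 247 CPM in GL261, a 2.38-fold higher mean in mNS. Ide (log2 difference 0.79) and Dpp3 (0.49) also rose, and Tpp2, a giant tripeptidyl peptidase, fell (-0.53).

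Of 10 class I-like genes 4 rose and 1 fell. Cd1d1, which presents lipids, had 6.34, 9.05 and 7.93 CPM in mNS and 1.64, 1.35 and 1.73 CPM in GL261 (log2 difference 1.76 ± 0.16, limma adjusted p = 1.94e-05). The other risers were the protein C receptor gene Procr (0.72), the neonatal Fc receptor gene Fcgrt (0.72) and Raet1e (0.67), which encodes a ligand of an activating natural killer cell receptor. Of 6 genes of endosomal class II processing 3 rose and 2 fell, with March8, a ubiquitin ligase of surface molecules (1.09), and the protease gene Ctsl (0.6996) among the rises and the protease genes Lgmn (-0.64) and Ctsb (-0.596) as the falls. Among 15 proteasome accessory genes 6 rose and 5 fell. The 19S deubiquitinase gene Uchl5 fell (48.2 ± 1.22 CPM in mNS and 87.4 ± 7.75 CPM in GL261, SD, n = 3 each), and Ubqln2, a ubiquitin shuttle (log2 difference 0.83), Zfand5 (0.55) and Shfm1, a small lid subunit (0.54), rose. Of 11 genes that control transcription of proteasome genes 5 rose and 1 fell. Of the small Maf genes Maff rose (25.3 ± 1.92 CPM in mNS and 4.799 ± 0.629 CPM in GL261) and Mafk fell (32.4 ± 1.52 CPM in mNS and 62.03 ± 0.905 CPM in GL261). Ngly1, a deglycosylase that acts on Nfe2l1 (0.85), and Foxo4 (0.81) rose.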

How the data were processed

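RNA-seq libraries of 3 mNS and 3 GL261 samples were compared. Ribosomal RNA was removed from total RNA and stranded libraries were read as 100-base single reads, per the labels and series text. TopHat2 (version 2), HTSeq 0.5.3p9, edgeR 3.4.2 and mm10 appear in the submitters' processing notes with no roles. The deposited signal is CPM that the authors scaled with TMM factors, 1 value per gene and library, as the series text and the name of the table say. Its columns sum to between 968335 and 1037864. Values were whole multiples of the worth of 1 read: 100% came out whole within 0.001 reads.

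The main test was limma 3.58.1 (R 4.3.3, trend, two-sided) on log2(CPM + 1), adjusted by Benjamini-Hochberg over 12006 genes averaging 1 CPM or more, called under 0.05. It was also run on simulated counts. Those had larger changes than most members and less spread than many MHC genes here, so the run does not show how the test does on such genes. Alternatives were pseudocounts of 0.5 and 0.1, no filter or 5 CPM, rescaling to a common sum or the median gene, no trend, an adjusted p under 0.01, leaving out each library, and edgeR 4.0.16 and DESeq2 1.42.0 on the recovered reads. The edgeR quasi-likelihood test called 7651 genes and limma 7714.

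Members, lists and motifs were chosen with earlier results of these data known. Given in every library are the catalytic, PA28 and MHC genes, the 3 largest called rises and falls among other proteasome genes and the largest difference of each list; from other lists, up to 4 called genes with the largest differences are named, of which 1 is not reported here. Gene positions, exon lengths and shared 100-base windows were read from GENCODE M21; 64 symbols matched directly and 1 as a synonym. Figures were drawn with matplotlib 3.10.9.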

Additional observations from a re-analysis of the deposited data

How the results depend on the processing

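Of the 36 called members, 22 kept their call without each library in turn, among them H2-K1, Tap2, Psmb10, Psme1, Psme2 and Psmd1. Leaving out 1 library at a time gave between 24 and 36 members called, between 6 and 14 of them higher and between 18 and 23 lower in mNS. It gave between 3 and 7 MHC and presentation genes called higher and between 1 and 4 lower, and between 2 and 7 proteasome genes called higher. At an adjusted p under 0.01 there were 21 members called by limma, 6 higher and 15 lower; 3 MHC and presentation genes were higher and 1 lower, and 3 proteasome genes were higher. With columns rescaled to a common sum 15 members were called lower, 1 of them an MHC and presentation gene. The edgeR quasi-likelihood test on recovered reads called 37 members and DESeq2 36. Among the named genes and ratios, signs turned only where no difference had been called: H2-Ke2 was 0.049 after rescaling to a common sum, and without single libraries Erap1 lay between -0.092 and 0.17, Psmb8 between -0.098 and 0.37, B2m between -0.32 and 0.010 and the ratio of B2m to Tapbp between -0.070 and 0.26. The cause of these changes was not tested. No paired analysis was possible because the labels number no replicates and the passages differ between the cell forms.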
